A study of Mus musculus with 7 samples.

Results

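The arginine, polyamine and itaconate enzymes described here are 6 of the 27514 genes shared by the annotations of the deposited matrices. They were taken by symbol, as Arg1, Nos2, Odc1, Sat1, Slc7a2 and Acod1, the last of which is listed under its older name Irg1 in the CD45+ matrices, so that 7 symbols name 6 genes. All 6 are listed in every matrix.

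The cells came from C57BL6/J mice after permanent ligation of the left anterior descending coronary artery, which causes a myocardial infarction, and were profiled with 10x Genomics 3' single-cell RNA sequencing. There were 5 libraries of CD45+ heart leukocytes of male mice (chemistry version 2), namely steady state without infarction, and days 1, 3 and 5 (5 mice pooled in each), and day 7 (3 mice pooled). They had been sorted as not labelled by an intravenous CD45.2 antibody, after a step that lowered the number of neutrophils. A further library (version 3) pooled CD11b+ heart cells of male mice from days 1, 3 and 5 after infarction (5, 5 and 3 mice), which also lacked the intravenous label, told apart by 3 hashtag antibodies and stained with 10 other antibodies. A last library pooled CD11b+ cells of blood and heart of mice aged 8 to 10 weeks, from unoperated mice and from days 1 and 3 after sham surgery or infarction, under 7 hashtags that the labels used here do not tie to conditions. The mice of a time point were pooled, so each day has 1 sum of cells per experiment and no replicate animals. The p-values rest on how far the day changes disagree between the 2 heart experiments, moderated over all genes. They do not measure the spread between mice.

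Arginine is shared between competing enzymes in myeloid cells. Slc7a2 encodes a cationic amino acid transporter that brings arginine into the cell; Arg1 encodes arginase, which splits it into ornithine and urea; and Nos2 encodes the inducible nitric oxide synthase, which turns it into nitric oxide and citrulline. Ornithine is the substrate of Odc1, ornithine decarboxylase, which makes the polyamine putrescine, and Sat1 acetylates the polyamines spermidine and spermine for export or breakdown. Acod1 encodes the mitochondrial enzyme that makes itaconate from the Krebs cycle intermediate cis-aconitate, and itaconate inhibits succinate dehydrogenase. Arg1, Nos2 and Acod1 are best known from activated macrophages.

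In GRCm38, Arg1 lies at chr10:24915221-24927484 on the minus strand, Nos2 at chr11:78920787-78960254 on the plus strand and Slc7a2 at chr8:40862396-40922308 on the plus strand. Odc1 lies at chr12:17544794-17551505 (plus), Sat1 at chrX:155213132-155216449 (minus) and Acod1 at chr14:103046977-103056573 (plus). The RefSeq promoter table (GRCm38.p6) held 3 of the 6 members. The 250 bases before the RefSeq start are shown for Acod1 and Sat1, as the members of this table whose monocyte/macrophage levels varied most and least over the days; capitals mark TATAAA in Acod1 and the GC box GGGCGG, or its complement CCGCCC, in Sat1.
Acod1 promoter, chr14:103046762-103047011, plus strand: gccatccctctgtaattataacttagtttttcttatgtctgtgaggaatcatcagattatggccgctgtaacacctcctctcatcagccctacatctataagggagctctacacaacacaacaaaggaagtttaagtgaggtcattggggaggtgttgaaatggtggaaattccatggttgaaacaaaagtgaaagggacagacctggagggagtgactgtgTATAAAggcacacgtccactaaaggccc
Sat1 promoter, chrX:155216450-155216699, minus strand: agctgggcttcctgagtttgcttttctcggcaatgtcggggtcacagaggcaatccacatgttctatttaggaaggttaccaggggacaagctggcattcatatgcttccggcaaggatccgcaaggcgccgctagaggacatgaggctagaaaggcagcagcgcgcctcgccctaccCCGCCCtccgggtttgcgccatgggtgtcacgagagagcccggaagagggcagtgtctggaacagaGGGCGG
The GENCODE start of Acod1 lies 35 bases before that of RefSeq. The Acod1 window holds 1 TATAAA, 28 bases before the RefSeq start, no GC box, and 44.4% G or C. The Sat1 window holds 2 GC boxes, 72 and 6 bases before the start, no TATAAA, and 59.6% G or C, and that of Odc1 holds 4 GC boxes, no TATAAA and 80.0% G or C. On either strand, 12.4% of the 32851 promoters of the table hold TATAAA and 32.7% hold GGGCGG, and the median G or C content is 52.4%. None of the 3 windows holds TGANTCA (AP-1, in 6.75% of all promoters), the ISRE (2.98%), TTCNNNGAA (GAS, 7.02%) or CACGTG (E-box, 6.02%). The search of each motif covered both strands. A match describes the letters in the window and nothing about which factor binds there.

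After filtering, 4745 cells of the 5 CD45+ libraries and 4263 of the CD11b+ heart pool were used, as were 9999 cells of the blood and heart pool. Median UMI counts (unique molecules per cell) were 3594 to 9464, 18232 and 4282. Clusters were named from marker genes, and the raw counts of each named class were summed per day and experiment. Monocytes/macrophages numbered 524, 42, 625, 729 and 568 cells at steady state and days 1, 3, 5 and 7 in the CD45+ libraries, and 228, 1090 and 1337 cells on days 1, 3 and 5 in the heart pool. Neutrophils numbered 216, 135 and 40 cells on days 1, 3 and 5 in the CD45+ libraries and 257, 1001 and 222 in the pool; only 7 and 29 were found at steady state and day 7, under the minimum of 30 for a sum. Own-class markers summed to 18160 to 68450 CPM (UMIs of a gene scaled to an equal total in every sum) in the monocyte/macrophage sums and 50224 to 237609 CPM in the neutrophil sums. The classes were named from these same markers, so these sums are a description and no check of the names.

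A single cluster bears on every day 1 value. It held 205 CD45+ cells, 204 of them from day 1 (39.1% of that library's 522 cells, against 0.118% on day 3 and 0 of 945, 1793 and 639 cells on day 5, on day 7 and at steady state). Its leading genes were Saa3, Cxcl3 and Arg1 with Slpi, a neutrophil marker of the list used, and no gene of the monocyte/macrophage list used for naming. It therefore stayed unnamed although its monocyte/macrophage marker score (0.430) was above its neutrophil score (0.334). Chil3, from a separate list of monocyte markers not used for naming, was also among its 10 leading genes. The day 1 monocyte/macrophage class of the CD45+ library was therefore 42 cells, 30 of them in an interferon-gene cluster (Cxcl10, Rsad2, Isg15). The day 1 class of the heart pool consisted mainly of 108 cells of a cluster led by Arg1, Saa3 and Ccl24 and 102 cells of a Plac8, Chil3 and Ccr2 cluster. The day 1 levels of the members and their comparisons with day 1 are therefore given also with the unnamed cluster counted in the class, which makes that day 1 sum 246 cells. In that larger sum the neutrophil markers came to 24791 CPM and the monocyte/macrophage markers to 10557 CPM, against 6226 and 23689 CPM in the 42 cells. The 7 genes of the monocyte list, of which Ly6c2 and Ccr2 are also class markers, came to 7775 CPM in the larger sum.

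Arg1 was nearly absent from steady-state monocytes/macrophages and abundant after infarction. In the CD45+ libraries its level was 0.520 CPM at steady state (2 UMIs), 567 CPM on day 1, 1215 CPM on day 3, 389 CPM on day 5 and 188 CPM on day 7. In the heart pool it was 4513 CPM on day 1, 840 CPM on day 3 and 595 CPM on day 5. Every post-infarction sum was above steady state: the log2 ratio of day 3 to steady state was 11.19 (95% counting interval 9.34 to 14.24) and that of day 7 was 8.50 (6.65 to 11.55). These exact Poisson intervals cover counting error only, since steady state and day 7 were measured in 1 library each.

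The experiments differed in where Arg1 peaked. Day 1 was the lowest of the pair of early days in the CD45+ class (567 against 1215 CPM) and the highest in the heart pool, where day 1 was 5.37-fold above day 3 and 7.59-fold above day 5. The unnamed day 1 cluster had 4431 CPM of Arg1, close to the 4513 CPM of the heart pool on day 1, and with that cluster in the class the CD45+ day 1 level was 4007 CPM. In the 42 cells as named, the share with an Arg1 UMI could not be told from that of the library's T cells. In edgeR's quasi-likelihood test with the experiment as a term, the Arg1 change did not pass the threshold of an adjusted p of 0.05 on day 3 against day 1 (log2 -0.91, SE 0.741, edgeR adjusted p = 0.683), nor on day 5 against day 1 (log2 -2.19, SE 0.719, edgeR adjusted p = 0.0994). With the unnamed cluster in the class it fell by 2.26 on the log2 scale on day 3 against day 1 (SE 0.299, edgeR adjusted p = 0.0466) and by 3.37 on day 5 against day 1 (SE 0.312, edgeR adjusted p = 0.00683). Without the CD45+ day 1 sum the class gave log2 -2.24 (edgeR adjusted p = 4.12e-08) for day 3 and -3.33 (8.10e-13) for day 5, whereas without the heart pool's day 1 sum the day 3 change turned to log2 0.87. Leaving out a sum leaves its day with 1 sum and the fit with 1 residual degree of freedom, so that the other days supply the spread. Day 5 against day 3 gave log2 -1.28 (SE 0.675, edgeR adjusted p = 0.649), which did not pass (-1.11, SE 0.292, adjusted p = 0.442 with the cluster), and day 7 was lower than day 5 in the CD45+ libraries by a log2 ratio of 1.05.

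**Figure D1:**
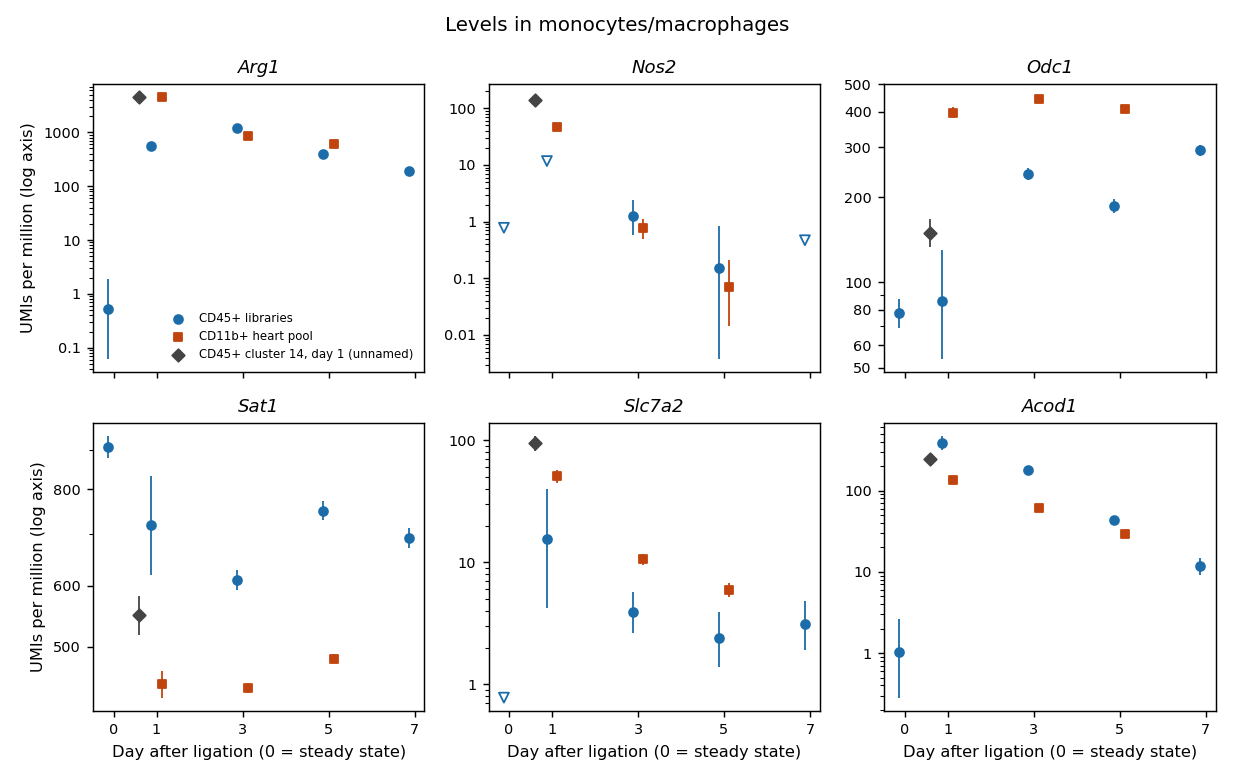
Levels of the 6 genes in monocytes/macrophages, in CPM on a log axis, by day after infarction (0 is steady state) in the CD45+ libraries and the CD11b+ heart pool. Bars are 95% exact Poisson intervals, open triangles mark 0 UMIs drawn at the 3-count limit, and grey diamonds show the unnamed day 1 cluster of the CD45+ library. Arg1 and Acod1 are near the detection limit at steady state, and Sat1 stays between 442 and 907 CPM.

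Slc7a2, the arginine transporter, was not found in the 524 steady-state cells, whose sum allows up to 0.780 CPM. In the CD45+ class it was at 15.6 CPM on day 1 (4 UMIs), 3.94 CPM on day 3, 2.42 CPM on day 5 and 3.13 CPM on day 7; day 3 was at least 5.06-fold higher than the steady-state limit of 3 counts in that library. In the heart pool it was at 50.5, 10.6 and 5.94 CPM on days 1, 3 and 5. Both experiments thus had the highest level on day 1 and the lowest on day 5 among these days. Slc7a2 fell by 2.36 on the log2 scale on day 3 against day 1 (SE 0.234, edgeR adjusted p = 0.00591) and by 3.17 on day 5 against day 1 (SE 0.241, edgeR adjusted p = 0.00185), with -0.81 for day 5 against day 3, which did not pass. The call for day 3 was lost without the pool's day 1 sum (log2 -1.92, edgeR adjusted p = 0.212) or its day 3 sum (-2.26, adjusted p = 0.32), and that for day 5 without the pool's day 1 sum (-2.74, adjusted p = 0.0764). With the unnamed cluster, where Slc7a2 stood at 94.8 CPM, the day 1 level of the class was 86.1 CPM. Day 3 against day 1 then gave log2 -3.45 (edgeR adjusted p = 0.0642) and day 5 against day 1 gave -4.26 (SE 0.58, adjusted p = 0.015).

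Nos2, the nitric oxide synthase that competes with arginase for arginine, was found mainly on day 1. In the heart pool it was at 47.4 CPM on day 1 (256 UMIs), 0.759 CPM on day 3 (27 UMIs) and 0.0710 CPM on day 5 (3 UMIs). The day 1 level of the pool was 62.4-fold above day 3. In the CD45+ class there were no Nos2 UMIs at steady state, day 1 or day 7, 9 on day 3 and 1 on day 5, and the day 1 sum of 42 cells allows up to 11.7 CPM. The unnamed cluster of that library had 143 CPM (297 UMIs), which would put the class at 127 CPM on day 1. Nos2 was too low to be tested in the class. When the unnamed cluster was added it passed the count filter through day 1, the group in which it is high, so no test of its fall is given. At 1 depth of 2000 UMIs per cell, 5.29% of the pool's day 1 class had a Nos2 UMI (95% exact interval 2.76 to 9.05), against 0.278% on day 3 and 0 of 1325 cells on day 5; in all molecules the shares were 14.5%, 0.917% and 0.224%. Day 1 T cells and B cells of the CD45+ library, which should lack Nos2, had no Nos2 UMI, but numbered only 16 and 13.

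Acod1, which makes itaconate, had its highest monocyte/macrophage level on day 1 in both experiments. It was at 1.04 CPM at steady state (4 UMIs), then 387, 178, 43.2 and 11.7 CPM on days 1, 3, 5 and 7 in the CD45+ class, and at 134, 60.7 and 28.9 CPM on days 1, 3 and 5 in the heart pool. The order of the days was the same in both, and each CD45+ value was above the pool's value of the same day. Day 1 was 372-fold above steady state (log2 8.54, counting interval 7.14 to 10.44), and day 7, 3.68-fold below day 5, was 11.3-fold above steady state (log2 3.50, 2.08 to 5.41). At 2000 UMIs per cell, however, 1.94% of the 568 day 7 cells had an Acod1 UMI (0.971 to 3.44), which could not be told from the 0.935% of 963 day 7 B cells, which should lack the gene. Counting in the unnamed cluster put the day 1 level at 258 CPM, 250-fold above steady state. Day 3 against day 1 gave log2 -1.19 (SE 0.313, edgeR adjusted p = 0.119) and did not pass, nor did it with the cluster (-1.05, SE 0.264, adjusted p = 0.148). On day 5 against day 1 Acod1 fell by 2.74 on the log2 scale (SE 0.328, edgeR adjusted p = 0.00339); with the unnamed cluster in the class it fell by 2.63 (SE 0.277, adjusted p = 0.00855). Fits with 1 sum left out, which have 1 residual degree of freedom, gave adjusted p from 5.91e-12 to 0.0332. Day 5 against day 3 gave log2 -1.55 (SE 0.312, edgeR adjusted p = 0.131).

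Odc1 and Sat1, the enzymes that make and break down polyamines, followed neither of these patterns. Odc1 stood at 78.0, 86.0, 241, 186 and 292 CPM at steady state and days 1, 3, 5 and 7 in the CD45+ class and at 397, 444 and 408 CPM in the pool. Its day 7 level was 3.75-fold above steady state (log2 1.91, counting interval 1.73 to 2.09) and above day 5 (log2 0.65, 0.54 to 0.75), the reverse of Arg1 and Acod1 between these days; day 1 as named (22 UMIs) could not be told from steady state (log2 0.14, -0.55 to 0.77). When the unnamed cluster was counted in the class, day 1 stood at 142 CPM and above steady state (log2 0.87, 0.64 to 1.10). Odc1 gave log2 0.61 on day 3 against day 1 (SE 0.367, edgeR adjusted p = 0.556, or 0.23 with the cluster, adjusted p = 0.54) and 0.33 on day 5 (SE 0.363, adjusted p = 0.627), and the sign of the latter turned when the CD45+ day 1 sum was left out (-0.17) or the unnamed cluster was counted in (-0.05). Without the pool's day 1 sum the day 3 and day 5 changes were log2 1.46 (adjusted p = 0.00521) and 1.18 (adjusted p = 0.0159). Sat1 lay between 611 and 907 CPM in all 5 CD45+ sums as named, was at 568 CPM on day 1 with the unnamed cluster, and lay between 442 and 483 CPM in the pool. Its highest level was at steady state, and its changes of log2 -0.20 (SE 0.255, edgeR adjusted p = 0.808) on day 3 and -0.01 (SE 0.255, adjusted p = 0.993) on day 5, each against day 1, did not pass. With the cluster they were -0.19 (adjusted p = 0.539) and -0.0021 (adjusted p = 0.994).

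Among the 5 members tested in monocytes/macrophages, 1 passed on day 3 against day 1, beside 1.46% of the 10583 genes tested. On day 5 against day 1, 2 of 5 passed beside 8.84% of genes, and on day 5 against day 3 none of 5 beside 0.085% (2 of 5 at an unadjusted edgeR p under 0.05, and 1 in DESeq2). With the unnamed cluster in the class Arg1 was called on day 3, and Arg1, Slc7a2 and Acod1 on day 5, each against day 1, and none on day 5 against day 3, which is 1, 3 and 0 of 5 members other than Nos2, beside 0.774%, 9.97% and 0.0283% of 10595 genes. All members called in either version were lower on the later day; in the class as named, lower calls made up 0.605% of genes on day 3 and 3.65% on day 5, each against day 1. Markers of neutrophils moved with these comparisons: all 15 were measured, and their sum in the monocyte/macrophage class was 6226 CPM on day 1, 2909 CPM on day 3 and 642 CPM on day 5 in the CD45+ libraries, 3057, 880 and 685 CPM in the pool, and 162 CPM at steady state. Ly6g was at 0 in the CD45+ class at steady state and on days 1, 5 and 7, and Camp at 0 in the pool on all 3 days. Marker sums of other kinds moved as well. On days 1, 3 and 5 the interferon genes came to 5765, 816 and 849 CPM in the CD45+ class (570, 487 and 376 CPM in the pool). The 12 dendritic cell markers came to 559 CPM on day 1 and at most 15.9 CPM on days 3 and 5 (5.92, 5.82 and 5.56 CPM in the pool), and 94.4% of the 559 CPM was Ccl17. The 6 markers of type 2 innate lymphoid cells came to 688, 213 and 64.4 CPM and to 442, 89.2 and 45.3 CPM in the pool; Areg made up 97.2% and 98.7% of the day 1 sums, and Gata3, Il13 and Il5 were at 0 on day 1 in both. The part of these markers in the results was not tested.

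**Figure D2:**
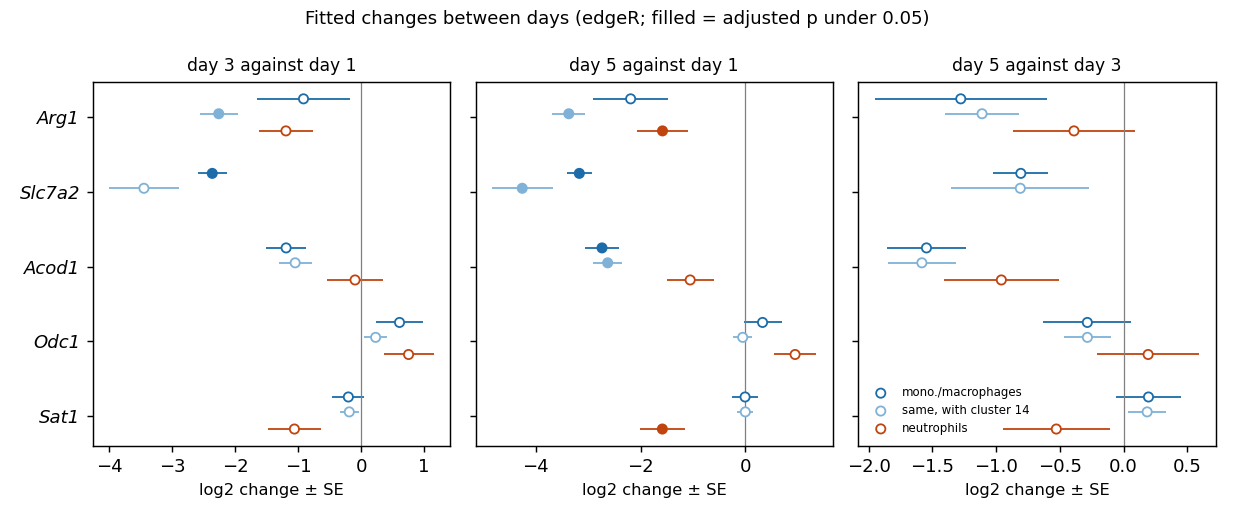
Fitted log2 changes of Arg1, Slc7a2, Acod1, Odc1 and Sat1 with their standard errors, for monocytes/macrophages, the same class with the unnamed day 1 cluster, and neutrophils. Nos2 is not drawn. Filled points have an edgeR adjusted p under 0.05. In monocytes/macrophages Acod1 on day 5 against day 1 is filled with and without the cluster, while Arg1 is filled only with it.

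Acod1 was higher in neutrophils than in monocytes/macrophages on every day that had both. It stood at 1396, 3249 and 2029 CPM on days 1, 3 and 5 in CD45+ neutrophils and at 2866, 2739 and 1948 CPM in those of the pool. All 6 values were above every monocyte/macrophage value: the neutrophil level was 3.61-, 18.2- and 46.9-fold higher on days 1, 3 and 5 in the CD45+ libraries and 21.3-, 45.1- and 67.5-fold higher in the pool. The CD45+ day 1 difference was 5.38-fold with the unnamed cluster in the monocyte/macrophage class. Levels in CPM compare the classes per UMI and not per cell. On days 1 and 5 the pool's neutrophils had medians of 4333 and 3947 UMIs, and its monocytes/macrophages 22502 and 28772. Per cell the difference was smaller: day 1 had 3256 Acod1 UMIs in 257 neutrophils and 726 in 228 monocytes/macrophages. Day 5 had 1750 in 222 and 1221 in 1337. The few steady-state and day 7 neutrophils had 11 UMIs (740 CPM in 7 cells) and 67 UMIs (669 CPM in 29 cells). Acod1 did not pass between days in neutrophils (log2 -0.09, edgeR adjusted p = 0.943 on day 3, and -1.05, SE 0.45, adjusted p = 0.16 on day 5, each against day 1). Thinned to 2000 UMIs, 84.7%, 79.1% and 62.1% of the pool's neutrophils had an Acod1 UMI on days 1, 3 and 5, against 18.9%, 9.07% and 4.23% of its monocytes/macrophages; in all molecules the shares were 90.7%, 83.9% and 71.6% against 42.5%, 33.7% and 22.0%.

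**Figure D3:**
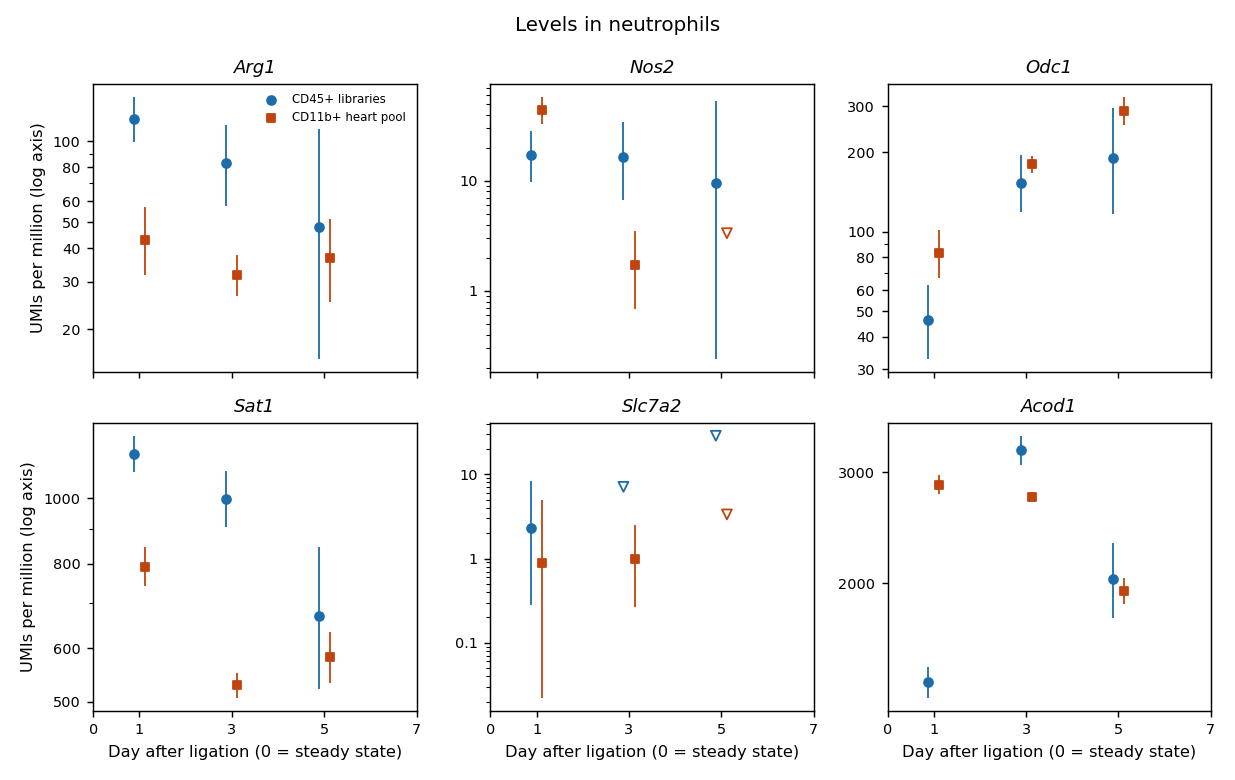
Levels of the 6 genes in neutrophils, in CPM on a log axis, on days 1, 3 and 5 in both heart experiments, with 95% exact Poisson intervals; open triangles mark 0 UMIs at the 3-count limit. Acod1 lies between 1396 and 3249 CPM, and Nos2 in the pool goes from 44.0 CPM on day 1 to 1.71 CPM on day 3.

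Arg1 was lower in neutrophils than in monocytes/macrophages. It was at 121, 82.8 and 47.9 CPM on days 1, 3 and 5 in the CD45+ libraries and at 43.1, 31.7 and 36.7 CPM in the pool; monocytes/macrophages were 4.68-, 14.7- and 8.14-fold higher in the former and 105-, 26.5- and 16.2-fold higher in the latter. The 4.68-fold difference rests on the 42 named cells of day 1, and with the unnamed cluster in the class it was 33.2-fold (log2 5.05, counting interval 4.78 to 5.35). In the CD45+ day 1 library the thinned share of neutrophils with an Arg1 UMI (23.2%, 17.4 to 29.8) did not exceed that of 15 T cells (26.7%, 7.79 to 55.1), so few that neutrophil expression and background cannot be told apart in that library. The 39 thinned cells of the named day 1 monocyte/macrophage class of that library, at 30.8% (17.0 to 47.6), could not be told from that background either, whereas the unnamed cluster was at 68.5% (61.6 to 74.9) and the pool's day 1 class at 73.6% (67.3 to 79.2). Median depths of these cells were 3394 UMIs in the neutrophils, 3059 in the T cells and 5667 in the day 1 class. On day 7 the background was small: 1.66% of 963 B cells against 14.1% of 568 monocytes/macrophages (11.3 to 17.2).

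Nos2 was found in day 1 neutrophils as well as in day 1 monocytes/macrophages. It was at 17.3, 16.6 and 9.57 CPM in CD45+ neutrophils (15, 7 and 1 UMIs) and at 44.0, 1.71 and 0 CPM in those of the pool (50, 7 and 0 UMIs). In the pool on day 1 the classes could not be told apart per UMI (log2 ratio of monocytes/macrophages to neutrophils 0.11, counting interval -0.33 to 0.57). Per cell the monocytes/macrophages held more, with 256 Nos2 UMIs in 228 cells against 50 in 257 neutrophils. In the CD45+ library of day 1 the named class had no Nos2 UMI, and with the unnamed cluster it was 7.38-fold above the neutrophils. A single cell held 25 of the 50 UMIs of the pool's day 1 neutrophils. Nos2 gave log2 -3.42 on day 3 (SE 0.877) and -5.50 on day 5 (SE 1.31), each against day 1. Its day 1 sums, in which it is high, carried it past the count filter, so its edgeR calls on these days are no test of a fall. Without a filter the same counts gave log2 -3.40 and -5.54. With the filter but without the pool's day 1 sum the changes were log2 -0.70 and -2.66. Without the pool's day 3 sum the day 3 change was -0.98. Neither call held without the pool's day 1 sum, or without either day 5 sum. Slc7a2 had 2, 0 and 0 UMIs in CD45+ neutrophils and 1, 4 and 0 in those of the pool, too few to test; in the pool monocytes/macrophages had 273 UMIs against 1 on day 1 (log2 ratio 5.84, counting interval 3.35 to 11.15) and were 10.9-fold higher on day 3.

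For the polyamine enzymes the neutrophil values depended on the scaling. Odc1 stood at 46.2, 154 and 191 CPM on days 1, 3 and 5 in CD45+ neutrophils and at 82.7, 181 and 288 CPM in the pool, lowest on day 1 in both. Sat1 stood at 1163, 999 and 670 CPM and at 792, 529 and 582 CPM, highest on day 1 in both. The fitted changes use TMM factors, which set the bulk of genes at no change and ranged from 0.538 to 1.47; with library totals in their place the median of all genes on day 5 against day 1 moved from log2 -0.03 to 0.90, and the genes called went from 127 higher and 343 lower to 1114 higher and 86 lower. On the TMM scale Sat1 fell by 1.59 on day 5 against day 1 (SE 0.426, edgeR adjusted p = 0.0314), Arg1, whose day 1 share of CD45+ cells could not be told from background, fell by 1.58 (SE 0.478, adjusted p = 0.0498), and Odc1 at log2 0.95 did not pass (SE 0.407, adjusted p = 0.163). With library totals Sat1 (log2 -0.59, adjusted p = 0.24), Arg1 (-0.61, adjusted p = 0.322) and Nos2 (-4.64, adjusted p = 0.0501) no longer passed, and Odc1 did (log2 1.93, adjusted p = 0.00772). None of the 3 TMM calls held without the CD45+ day 5 sum or without the pool's day 5 sum: Sat1 then gave -1.19 (adjusted p = 0.421) and -2.17 (0.139), and Arg1 -1.10 (0.503) and -2.60 (0.155).

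Of the 5 members tested in neutrophils, 1 passed on day 3 against day 1, beside 2.54% of 6172 genes, and 3 passed on day 5 against day 1, beside 7.62%. All 4 calls were lower on the later day, as were 1.98% and 5.56% of genes. The day 3 call was Nos2, which was also among the 3 of day 5. Its day 1 sums carried it past the count filter, so its calls are no test of a fall. On day 5 against day 3 none passed, beside 0% (1 of 5 at an unadjusted edgeR p under 0.05, none in DESeq2). The difference of the day changes between the classes was tested by an interaction term over 12 sums. No member passed on day 3 or on day 5 against day 1 or on day 5 against day 3, beside 0.0201%, 0.201% and 0% of 9940 genes, and 1, 2 and 0 of 6 members had an unadjusted edgeR p under 0.05. Monocyte/macrophage markers in the neutrophil sums came to 1492, 4839 and 7082 CPM on days 1, 3 and 5 in the CD45+ libraries and to 3043 to 3284 CPM in the pool; their part in the neutrophil values was not tested. Neutrophils of the CD45+ libraries came from a Ngp and Retnlg cluster on day 1 (215 of 216 cells) and from a G0s2 and Il1r2 cluster on days 3 and 5 (131 of 135 and 40 of 40). Those of the pool came mostly from a Retnlg, Lcn2 and S100a9 cluster on day 1 (217 of 257) and from a Tnf, Icam1 and Ccrl2 cluster on days 3 and 5 (835 of 1001 and 159 of 222), so the day changes of neutrophils in both experiments also compare different clusters.

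Within the monocyte/macrophage class, the Arg1 pathway members were unevenly spread. Arg1, Nos2, Slc7a2 and Acod1 were among the genes used to form the clusters of the pool, so cluster levels are a description. The cluster led by Arg1, Saa3 and Ccl24 (108, 77 and 52 cells on days 1, 3 and 5) had 6916, 4021 and 3687 CPM of Arg1. In the Plac8, Chil3 and Ccr2 cluster, whose leading genes are known from monocytes, Arg1 was at 1652, 447 and 428 CPM. The Fabp5, Gpnmb and C1qa cluster, which held 815 of the 1337 day 5 cells, had 882 CPM on day 3 and 556 CPM on day 5. Slc7a2 was in the Arg1-led cluster at 76.3, 73.3 and 72.7 CPM, while the class as a whole went from 50.5 to 5.94 CPM and the cluster's share of the class went from 108 of 228 cells to 52 of 1337. The 2 named clusters led by Arg1 (this one and its CD45+ counterpart) were also left out. Slc7a2 then gave log2 -1.68 on day 3 and fell by 2.66 on day 5, each against day 1. Acod1 fell by 1.96 and 3.13. The omission left 41 of 42 CD45+ cells but 120 of 228 pool cells on day 1. The clusters were chosen by a member, so no test is given, and the part of the clusters in the day changes was not tested.

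Acod1 and Odc1 were distributed differently from Arg1 over the same clusters. Acod1 was at 116, 164 and 89.4 CPM in the Arg1-led cluster and at 169, 131 and 84.1 CPM in the Plac8 cluster, but at 14.6 and 16.9 CPM on days 3 and 5 in the Fabp5 cluster. Odc1 was at 465, 753 and 703 CPM in the Arg1-led cluster and between 295 and 503 CPM in the Plac8 and Fabp5 clusters. In the CD45+ libraries, the cluster led by Saa3, Fn1, Hp and Arg1 (80 and 37 cells on days 3 and 5) had 2249 and 3641 CPM of Arg1 and 826 and 345 CPM of Acod1, but 124 and 129 CPM of Odc1, below the 230 and 207 CPM of the Trem2 and Gpnmb cluster. The steady-state cluster led by Hspa1a, Mgl2 and Cbr2 (506 cells) had 0.543 CPM of Arg1, and its 73 day 7 cells had 108 CPM.

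**Figure D4:**
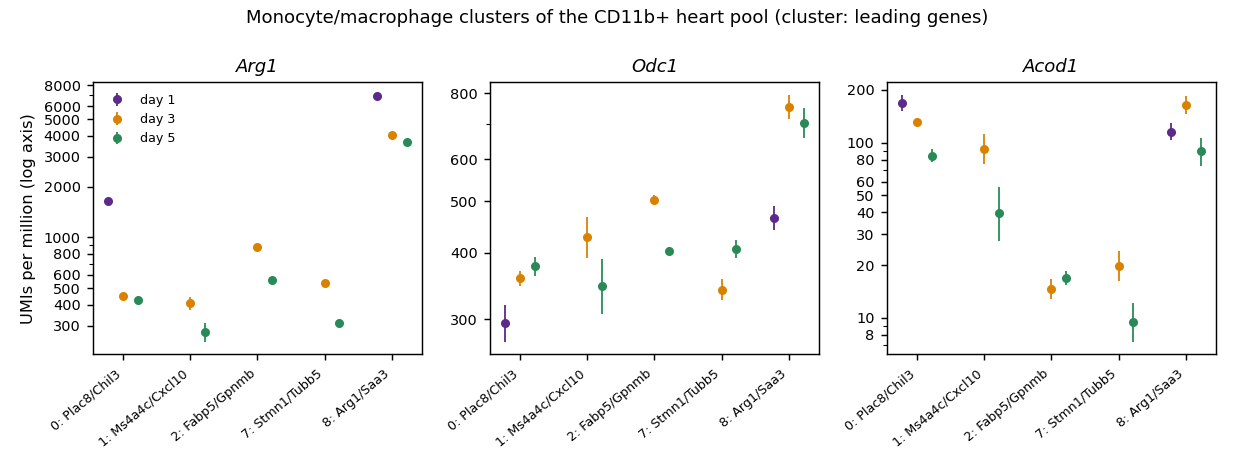
Levels of Arg1, Odc1 and Acod1, in CPM on a log axis, in the monocyte/macrophage clusters of the CD11b+ heart pool by day, with 95% exact Poisson intervals. The Arg1-led cluster 8 is highest in Arg1 (3687 to 6916 CPM), and Acod1 is lowest in clusters 2 and 7 (9.51 to 19.8 CPM).

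Single cells held very different amounts of these transcripts. The 10% of pool monocytes/macrophages with the most Arg1 held 40.2%, 56.2% and 67.6% of its UMIs on days 1, 3 and 5, and in the CD45+ libraries 63.5%, 80.3% and 86.8% on days 3, 5 and 7. On day 1 the top 10% of the CD45+ class as named, 5 of 42 cells, held 82.8% of its Arg1 UMIs. For Acod1 these shares were 66.7%, 81.5% and 86.9% in pool monocytes/macrophages but 33.2%, 35.0% and 43.8% in its neutrophils. Arg1 and Nos2 use the same substrate, and 34 of 200 cells of the unnamed CD45+ day 1 cluster had UMIs of both at 2000 UMIs per cell. In that cluster Nos2 was detected in 24.8% (17.8 to 32.9) of cells with an Arg1 UMI and in 12.7% (5.65 to 23.5) of the others, intervals that overlap. In the pool's day 1 monocytes/macrophages these shares were 6.59% (3.33 to 11.5) and 1.67% (0.0422 to 8.94), and in the CD45+ day 1 neutrophils 0 of 44 and 9 of 146. An Arg1 UMI was also found in 26.7% of the T cells of the CD45+ day 1 library. In the unnamed cluster Slc7a2 was detected in 20.4% (14.03 to 28.2) of cells with an Arg1 UMI and 1.59% (0.0402 to 8.53) of the others, intervals that do not overlap. The named day 1 classes did not show this. In the pool's day 1 monocytes/macrophages the shares were 5.99% (2.91 to 10.7) and 5.00% (1.04 to 13.9). In those of the CD45+ library they were 0% (0 to 26.5) and 7.41% (0.910 to 24.3). In the heart pool Odc1 was detected in 49.8% (45.1 to 54.5) of Arg1 cells and 35.9% (32.2 to 39.8) of the others on day 3. The Odc1 intervals overlapped on day 1 (39.5%, 32.1 to 47.4, against 26.7%, 16.1 to 39.7). They also overlapped on day 5 (43.1%, 38.2 to 48.0, against 38.8%, 35.7 to 42.1) and in CD45+ monocytes/macrophages on days 1, 3, 5 and 7. Acod1 was detected in 8.15% (5.80 to 11.1) and 9.74% (7.54 to 12.3) on day 3 of the pool. Cells share their library, and these intervals cover counting error only.

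Surface antibodies of the heart pool gave a readout that did not enter the clustering. On days 1, 3 and 5, monocytes/macrophages with an Arg1 UMI after thinning (167, 454 and 411 cells) carried a median of 42, 63 and 60 tags of CD64, an Fc receptor of macrophages, against 27, 44 and 53 in the other cells (60, 626 and 914). Tags of the scavenger receptor MSR1 were 33, 38 and 33 against 24, 26 and 26. Ly6C, a marker of inflammatory monocytes, went the other way on the first of these days, 171 against 224 and then 84 against 108, but was 79 against 72 on day 5. All antibodies except Ly6C had higher raw medians in the Arg1 cells on days 1 and 3. Ly6G was among them (113 against 106.5, then 126 against 115). On day 5 all but IA_IE (99 against 103) were higher. As a share of all tags of a cell, the medians for CD64 were 5.47%, 7.97% and 8.33% against 3.61%, 5.84% and 7.81%. By this share on day 1, Ly6G (14.8% against 17.1%), TIM4 (3.80% against 3.85%), Ccr2 (6.47% against 6.73%) and Ly6C were lower in the Arg1 cells. The remaining antibodies were higher. The Arg1 cells also held more mRNA UMIs before thinning, at medians of 23921, 33680 and 31251 against 19854, 26557 and 27994, and all cells of a day share 1 library, so these values have no test.

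The other genes of the pathways came from lists of 23 genes of arginine supply and use, 5 of tetrahydrobiopterin (the cofactor of Nos2), 19 of the polyamine pathway and 18 of itaconate and neighbouring Krebs cycle steps. In monocytes/macrophages, no gene of these 4 lists passed on day 3 against day 1 (18, 4, 18 and 18 tested), beside 1.46% of all genes tested. With the unnamed cluster in the class Ass1, which makes argininosuccinate, was lower, beside 0.774% of all genes called. On day 5 against day 1, 1 arginine gene was higher and 3 were lower of 18, with a median log2 change of -0.38 beside 0.05 for all genes. Of all 10583 genes tested, 8.84% passed in this comparison. Arg2, the mitochondrial arginase, fell by 1.83 on the log2 scale (SE 0.31, edgeR adjusted p = 0.00957), from 168 to 59.6 CPM in the CD45+ libraries and from 126 to 35.0 CPM in the pool. Slc7a1, another arginine transporter, fell by 0.93 (SE 0.243, edgeR adjusted p = 0.0493), P4ha2, a prolyl hydroxylase subunit, fell by 1.67 (adjusted p = 0.0254), and Gamt, which makes creatine, rose by 1.35 (adjusted p = 0.0214). Gch1, the first enzyme of tetrahydrobiopterin synthesis, fell by 1.26 (SE 0.282, edgeR adjusted p = 0.028) and was the 1 of 4 cofactor genes that passed. Of 18 polyamine genes, 2 were higher, the polyamine oxidase Paox (log2 2.02, edgeR adjusted p = 0.0124) and the lysosomal polyamine exporter Atp13a2 (1.46, adjusted p = 0.0486), and 1 was lower, the spermidine synthase Srm (-0.98, adjusted p = 0.0306), with a median of -0.02. None of the 18 Krebs cycle genes passed (median 0.20), and no gene of the 4 lists passed on day 5 against day 3. With the unnamed cluster in the class, day 5 against day 1 gave 0 higher and 3 lower arginine genes (Slc7a1, Arg2 and Ass1), Gch1 lower, and 0 higher and 3 lower polyamine genes (Srm, Smox and Eif5a). In that version 9.97% of all genes passed.

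In neutrophils fewer genes of these lists could be tested, and Slc7a1, P4ha2 and Gamt were not among them. Smox, the spermine oxidase, fell by 1.81 on the log2 scale on day 3 against day 1 (SE 0.397, edgeR adjusted p = 0.0191) and by 2.40 on day 5 (SE 0.412, adjusted p = 0.00291), and was the only polyamine gene of 11 to pass on day 3. In monocytes/macrophages Smox gave log2 -1.23 on day 5 against day 1 (adjusted p = 0.0967). On day 5 the antizyme Oaz2 fell by 1.94 (edgeR adjusted p = 0.0315) and Dohh, which modifies the translation factor eIF5A, rose by 2.54 (adjusted p = 0.045). Of 8 arginine genes P4ha1 was lower (log2 -2.30, edgeR adjusted p = 0.0176), of 4 cofactor genes Gch1 was lower (-1.44, adjusted p = 0.045), and of 12 Krebs cycle genes Idh2 (2.77, adjusted p = 0.0435) and Suclg1 (2.02, adjusted p = 0.0307) were higher. Medians of these lists on day 5 against day 1 were -1.07 (arginine), 0.07 (cofactor), 0.09 (polyamine) and 0.47 (Krebs cycle), beside -0.03 for all genes, and none passed on day 5 against day 3. Of all 6172 genes tested in neutrophils, 2.54% passed on day 3 and 7.62% on day 5, each against day 1. Arg2 stood at 481 to 786 CPM in the CD45+ neutrophil sums and at 337 to 604 CPM in those of the pool, above its level in every monocyte/macrophage sum of the same libraries and day.

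A pair of short lists holds genes often read together with Arg1 or with Nos2. Of the 8 tested with Arg1 in monocytes/macrophages, Pparg rose on day 3 (log2 2.26, edgeR adjusted p = 0.0428) and day 5 (2.61, adjusted p = 0.00743), and Chil3 (-2.47, adjusted p = 0.00977), Hif1a (-1.10, adjusted p = 0.0484) and Retnla fell on day 5, each against day 1. Retnla was at 616 CPM at steady state, where Arg1 was at 0.520 CPM. Of the 8 tested with Nos2, Il6 fell on day 3 (log2 -3.61, edgeR adjusted p = 0.0175), and Il6, Cd80, Il1b and Cd86 fell on day 5, by 5.05, 1.99, 1.79 and 1.34 on the log2 scale (edgeR adjusted p from 0.00242 to 0.0196). With the unnamed cluster in the class Pparg did not pass, Il6 and Il1b were lower on day 3, and 0 higher and 4 lower genes of the first list and 0 higher and 5 lower genes of the second passed on day 5. In neutrophils Chil3 fell on day 3 and day 5 (log2 -3.05 and -2.52, edgeR adjusted p = 0.0191 and 0.0342), and Il4ra (-1.43, adjusted p = 0.045) and Il6 (adjusted p = 0.0315) fell on day 5. Of all genes, 1.46% passed on day 3 and 8.84% on day 5 in monocytes/macrophages (0.774% and 9.97% with the cluster). For neutrophils these shares were 2.54% and 7.62%, each day against day 1. Over the 8 monocyte/macrophage sums, the genes whose log levels were most like those of Arg1 were Emb, Surf4 and Srp9 (Pearson r of 0.994, 0.992 and 0.989) and those most like Acod1 were Gsr, Lrrc59 and Msr1 (0.996, 0.996 and 0.995), among 4786 genes. With 8 sums of unequal depth from 2 experiments these correlations are a description.

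In the blood and heart pool, whose hashtags are not tied to conditions, Arg1 in monocytes/macrophages was at 1.65, 1.09, 2.72, 1.33 and 6.90 CPM under hashtags 1 to 5 and at 685 and 354 CPM under hashtags 6 and 7. The same 2 hashtags had the highest values of Odc1 (33.1 and 27.6 CPM, against 7.96 to 12.4 CPM) and of Acod1 (2.75 and 4.97 CPM, against 0.311 to 0.796 CPM) in these cells, and the lowest of Sat1 (585 and 536 CPM, against 616 to 950 CPM). In neutrophils Acod1 was at 81.6, 63.2, 24.6, 34.1, 33.7, 148 and 119 CPM under hashtags 1 to 7, below all 6 values of the heart experiments. Differences between hashtags were not tested.

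**Figure D5:**
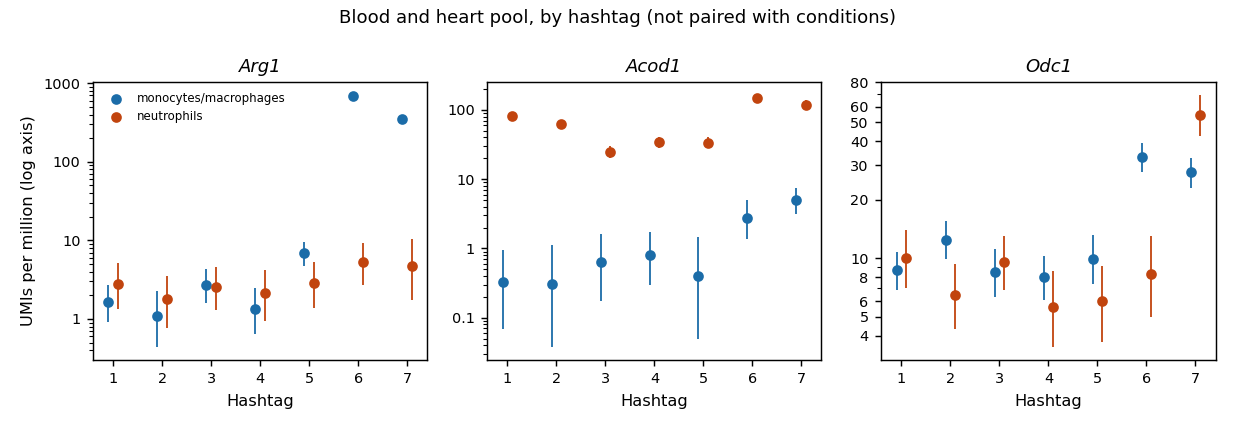
Levels of Arg1, Acod1 and Odc1, in CPM on a log axis, by hashtag in monocytes/macrophages and neutrophils of the blood and heart pool, with 95% exact Poisson intervals. Arg1 in monocytes/macrophages is at 685 and 354 CPM under hashtags 6 and 7 and at most 6.90 CPM under the other 5.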

How the data were processed

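The members and gene lists were chosen with earlier results of these data known. The deposited values are UMI counts per gene and cell, made by the authors with Cell Ranger (the file headers of the pools give version 3.0.2) on mm10/GRCm38, per the submitters' processing notes; hashtag and antibody tags are deposited counts too. Cells needed 200 detected genes and could hold up to 10% mitochondrial counts (17.4% of the heart pool's barcodes and 0.443 to 5.12% of the CD45+ barcodes exceeded this). Scrublet, as run in scanpy 1.11.5, marked 18 of 4763 CD45+ cells (0.378%) as doublets; cells with several hashtags (5.98% and 12.3% of the pools) or none (5.85% and 1.41%) were removed. Libraries shared 0 to 11 barcodes.

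Each experiment was clustered separately (2000 variable genes, 30 components, 15 neighbours, Leiden resolution 0.5, seed 0). A cluster took the class with the highest mean relative level of at least 3 markers seen in 20% of its cells, and stayed unnamed where another class had more markers among its 10 leading genes. This naming rule was settled after several rules had been tried with cluster markers and member levels in view. The first fits had the Saa3, Cxcl3 and Arg1 cluster of day 1 in the monocyte/macrophage class and called 2, 4 and 0 members. Both versions are given for that reason. In the version given here with the cluster, 0.774%, 9.97% and 0.0283% of the 10595 genes tested were called.

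Class sums of at least 30 cells were tested with edgeR 4.0.16 (quasi-likelihood, day plus experiment, 6 sums per class, filterByExpr, TMM, Benjamini-Hochberg over all genes tested, threshold 0.05), with an interaction term over 12 sums for the classes' difference. Experiments share days in place of replicate numbers, so experiment was the block; the fit has 2 residual degrees of freedom, and the biological coefficient of variation was 19.7% in monocytes/macrophages and 30.9% in neutrophils. Steady state and day 7 had 1 library each and no test. CPM use library totals, without division by gene length, since only transcript ends were counted; 95% intervals are exact Poisson or Clopper-Pearson, and 3 counts was the limit for a count of 0. Shares were thinned to 2000 UMIs per cell. All members were named, with every list gene that passed in the main comparison and the 5 most similar genes (mean of at least 20 CPM) computed for Arg1 and Acod1. On simulated counts (200 genes changed by log2 2) the fit recovered 59.5%, 54.5% and 71.5% of them in monocytes/macrophages for day 3 and day 5 against day 1 and day 5 against day 3, and 62%, 45.5% and 51% in neutrophils. DESeq2 1.42.0, other scalings, filters, class rules and left-out sums were alternatives; counting the unnamed cluster with either class and leaving out the Arg1-led clusters were added after seeing the data. Promoter sequences came from the RefSeq table of GRCm38.p6.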

Additional observations from a re-analysis of the deposited data

Results flagged for a closer look

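The blood and heart pool enters no comparison, because its hashtags are not tied to conditions, and held a signal of most members above the limit that a count of 0 allows. Over all hashtags, its 3398 monocytes/macrophages had 104 CPM of Arg1, 0.280 CPM of Nos2 (12 UMIs), 13.6 CPM of Odc1, 776 CPM of Sat1, 0.957 CPM of Slc7a2 and 1.19 CPM of Acod1. Its 6330 neutrophils had 2.81 CPM of Arg1, 2.29 CPM of Nos2, 10.2 CPM of Odc1, 820 CPM of Sat1 and 61.2 CPM of Acod1.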

How the results depend on the processing

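Each day compares 2 sums of pooled mice, so a single sum decides several calls, and steady state and day 7 have no replicate. Without the replicate block (experiment), no member passed in any class or contrast. In monocytes/macrophages, members called on day 3 against day 1 were 1, and 3 without a count filter, 4 with a 20% mitochondrial limit, 4 with members and lists left out of the clustering and 2 with the unnamed cluster, Nos2 among them as in the 4 of day 5 (0 to 4 with 1 sum left out). On day 5 against day 1 they were 2, and 4 without a filter, at the 20% limit, with classes from each cell's own markers, with members left out of the clustering and with the unnamed cluster (2 to 4 with 1 sum left out); on day 5 against day 3 they were 0, and 1 in DESeq2, 2 without a filter, 4 with only these days fitted, 4 at the 20% limit and 4 with members left out (0 to 4 with 1 sum left out). At the 20% limit and with members left out, the CD45+ day 1 class had 7 and 15 cells and gave no sum, so those fits rest on the pool's day 1. In neutrophils, day 3 against day 1 went from 1 to 0 in DESeq2, with cells' own markers and with the unnamed cluster counted as neutrophils (0 to 1 with 1 sum left out); day 5 against day 1 went from 3 to 1 with library totals, 1 in DESeq2 (without an adjusted p for Nos2) and 0 with the unnamed cluster as neutrophils (0 to 4); day 5 against day 3 stayed at 0. The interaction on day 5 against day 1 went from 0 to 1 with library totals or no filter and 2 at the 20% limit, and stayed at 0 with 1 sum left out. The number of all genes called also changed with the setting and is not set beside these counts. The counts therefore describe the fits and are not a result about the members. The cause of these differences was not tested.

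Signs turned for values that had not passed. In monocytes/macrophages Sat1 on day 5 against day 1 was 0.086 with library totals, 0.0064 in DESeq2, 0.028 without a filter, 0.0042 without the block, 0.0057 at the 20% limit, 0.0067 with own markers and 0.043 with members left out of the clustering (-0.027 to 0.039 with 1 sum left out); Odc1 was -0.18 at the 20% limit, -0.10 with own markers, -0.12 with members left out, and -0.052 with the unnamed cluster (-0.17 to 1.18 with 1 sum left out). With 1 sum left out, Arg1 ranged from -2.24 to 0.87 on day 3 against day 1 (above 0 without the pool's day 1 or day 3) and, on day 5 against day 3, Arg1 from -2.20 to 0.26 and Odc1 from -0.69 to 0.19 (above 0 without CD45+ day 3). In neutrophils Acod1 on day 3 against day 1 was 0.55 with library totals, 0.52 with own markers, and 0.64 with the unnamed cluster as neutrophils (-0.54 to 0.37 with 1 sum left out); on day 5 against day 3 the left-out sums gave -1.43 to 0.077 for Arg1, -5.51 to 0.21 for Nos2 and -0.19 to 0.45 for Odc1. Of the levels, Arg1 on day 1 over steady state was log2 13.9 with own markers, Odc1 1.09 and Sat1 -0.60; with the unnamed cluster Odc1 was 0.87 and Sat1 -0.67, and Arg1 on day 7 over day 5 was -0.88 with own markers. Unthinned, the shares with a UMI in the pool on days 1, 3 and 5 were 86.0%, 74.4% and 68.6% for Arg1 and 42.5%, 33.7% and 22.0% for Acod1 in monocytes/macrophages, and 90.7%, 83.9% and 71.6% for Acod1 in neutrophils. Over all genes, DESeq2 called 30 on day 5 against day 3 in monocytes/macrophages, against 9 in edgeR, and 1 in neutrophils against 0. On day 3 against day 1, library totals called 66 higher and 19 lower genes in monocytes/macrophages (91 and 64 with TMM, median log2 0.17 against 0.06) and 369 higher and 50 lower in neutrophils (35 and 122, median 0.68 against 0.01).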
